A study of Mus musculus with 6 samples.

Results

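The miR-181 family comprised 4 mouse miRNAs on the array, mmu-miR-181a, mmu-miR-181b, mmu-miR-181c and mmu-miR-181d (written without the species prefix below), taken by their exact names from the 611 mouse miRNAs measured. miR-181a and miR-181b were detected on every array, and miR-181c and miR-181d on none. With samples taken as unpaired, neither detected member passed the test between genotypes. The signal of miR-181a relative to miR-181b had an exact permutation p of 0.4, in a test that cannot give less than 0.1.

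The arrays compared bone marrow-derived macrophages of 3 knockout and 3 control samples, and the stated question was which miRNAs act downstream of Notch signalling when macrophages polarize. Knockout samples carried 2 floxed alleles of RBP-J, the DNA-binding protein through which Notch receptors regulate transcription (MxCre-RBP-Jf/f). Control samples carried 1 floxed allele and were otherwise alike (MxCre-RBP-Jf/+). The series design writes their genotype as +/-, although the sample titles name them WT. All mice were female C57BL/6 and carried MxCre, a Cre recombinase driven by the interferon-responsive Mx promoter, which is active in many cell types besides macrophages. All were given poly(I)-poly(C) to induce it, and all cells were stimulated with LPS, a bacterial cell wall component, for 24 h. No group was unstimulated or free of MxCre and poly(I)-poly(C), and RBP-J itself was not measured on these arrays. Nothing in the labels says whether replicates came from separate mice, so the p-values describe the spread between these samples, which may be technical.

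miRNAs are short RNAs that guide Argonaute proteins to matching sites in messenger RNAs, and bases 2 to 8, the seed, contribute most to target choice. The miR-181 family is known for its part in T cell receptor sensitivity and in the development of lymphoid cells, and it has also been linked to inflammatory signalling in myeloid cells. Each precursor hairpin can yield a mature strand and a passenger strand, which the array names with an asterisk.

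The mature sequences below, 5′ to 3′ with the seed in capitals, show how little separates the members that the probes had to tell apart.
miR-181a: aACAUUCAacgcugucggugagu
miR-181b: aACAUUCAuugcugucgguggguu
miR-181c: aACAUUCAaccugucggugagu
miR-181d: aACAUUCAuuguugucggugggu
The seed was identical in all 4 members. Of 1679 mature mouse miRNA names in the RefSeq table, 4 had this seed and all 4 belonged to the family. Counting positions from 1 at the 5′ end of miR-181a, miR-181b differed by A9U, C10U and A21G and by 1 additional base at its 3′ end, an edit distance of 4. miR-181c was at an edit distance of 1 from miR-181a, because removing the base at position 11 of miR-181a gives miR-181c. miR-181d was at an edit distance of 2 from miR-181b, through C12U and 1 base fewer at the 3′ end. A close sequence could hybridise to a neighbouring member's probe, and this cross-reaction was not tested.

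The mature strands come from 6 loci in 3 clusters of the RefSeq annotation on GRCm38.p6. miR-181a and miR-181b lie together on chromosome 1, at chr1:137966468-137966490 and chr1:137966650-137966673 on the plus strand, where no annotated gene spanned them. A second copy of both lies on chromosome 2, at chr2:38852741-38852763 and chr2:38853845-38853868 on the plus strand, inside the spans of Nr6a1, which encodes an orphan nuclear receptor, and of Nr6a1os. miR-181c and miR-181d lie 142 bases apart on chromosome 8, at chr8:84178924-84178945 and chr8:84178759-84178781 on the minus strand, where no annotated gene spanned both. The mature miR-181a of both loci is identical, as is that of miR-181b, so their probes cannot tell the chromosome 1 copy from the chromosome 2 copy. The passenger strands do differ between the loci. They are shown because they could have separated them.
miR-181a-1*: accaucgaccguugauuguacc
miR-181a-2*: accaccgaccguugacuguacc
Counted from the 5′ end of miR-181a-1*, these differ by U5C and U16C. Neither was detected on any array, so the contribution of each locus was not measured.

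Of the 611 miRNAs, 110 were detected on all 6 arrays and 452 on none, where a miRNA counted as detected on an array if at least 50% of the spots of a probe were well above background by the scanner's flag. As a check of the cell type, 6 of 6 miRNAs abundant in macrophages, miR-223, miR-142-3p, miR-142-5p, miR-146a, miR-155 and miR-21, were detected on all arrays. Their summed gene-level signal ranged over 21813 to 31446 intensity units on knockout arrays and 33498 to 39985 on control arrays. Of 21 marker miRNAs of 6 other cell classes (lymphoid, erythroid or platelet, endothelial, stromal, epithelial and muscle), 0 were detected on any array. The summed signal of all mouse miRNAs was also lower on knockout arrays, with a knockout to control ratio of 0.767. These groups did not overlap, and the two-sided exact permutation test gave p = 0.1, the smallest possible with 3 against 3. Each array's signals were therefore read in 2 ways, unscaled and divided by the 75th percentile of the 200 probes detected on every array. That percentile was 227, 186 and 226 intensity units on knockout arrays and 288, 243 and 352 on control arrays. Fewer labelled molecules and a dimmer array cannot be told apart in these values.

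mmu-miR-181a had 120 of 120 spots well above background. Its brighter probe read 89.6, 93.7 and 80.4 intensity units in knockout replicates 1 to 3, against 110.3, 93.1 and 125.0 in control replicates 1 to 3. Knockout replicate 2 lay just above control replicate 2, and the other knockout arrays lay below all controls. Its dimmer probe read 23.0, 27.04 and 23.3 in knockout samples and 28.8, 25.3 and 37.3 in control samples, with the same overlap. The scanner's gene-level total averaged 75.6 ± 5.89 in knockout samples and 92.3 ± 13.9 in control samples (SD, n = 3 each), a ratio of 0.820. An exact permutation test did not separate the genotypes (p = 0.2).

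After scaling, the miR-181a level was -1.34, -0.99 and -1.49 on the log2 scale in knockout samples, against -1.38, -1.38 and -1.50 in control samples. The controls lay close together, and knockout replicate 2 lay above all other arrays. The knockout minus control difference was 0.15 (SE 0.18), a ratio of 1.11 with a 95% interval of 0.835 to 1.47, and limma's adjusted p was 0.748. Without knockout replicate 2 the difference was 0.005. The median difference of all tested miRNAs was 0.11, so miR-181a stood 0.04 above it. Its sign depended on the scaling. Without scaling the difference was -0.31, the same as the median of all tested miRNAs under that setting.

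mmu-miR-181b was dimmer, with 107 of 120 spots well above background. Its brighter probe read 20.6, 32.0 and 25.5 intensity units in knockout samples, against 20.4, 26.2 and 33.3 in control samples. Both genotypes covered almost the same range. The dimmer probe read 12.2, 17.2 and 15.001 in knockout samples and 11.97, 15.3 and 21.1 in control samples. Its value in control replicate 1 was not well above background, and the lowest detected probe signal on the arrays ranged from 9.67 to 12.9. The gene-level total averaged 26.9 ± 5.93 in knockout samples and 28.5 ± 6.60 in control samples (SD, n = 3 each), and the exact permutation test gave p = 0.7.

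On the scaled log2 scale miR-181b was at -3.46, -2.54 and -3.15 in knockout samples and at -3.82, -3.21 and -3.40 in control samples. Knockout replicate 2 was again the highest and control replicate 1 the lowest. The knockout minus control difference was 0.43 (SE 0.27), a ratio of 1.34 with a 95% interval of 0.882 to 2.05, and limma's adjusted p was 0.637. Without knockout replicate 2 it was 0.17, and without control replicate 1 it was 0.26. The upper end of the interval leaves room for a difference near 2-fold, so an absence of change was not shown for miR-181b. The median difference of all tested miRNAs was 0.11, so miR-181b stood 0.32 above it, and the interval includes that shared part. Without scaling the miR-181b difference was -0.03, which was 0.28 above the median of all tested miRNAs under that setting.

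**Figure D1:**
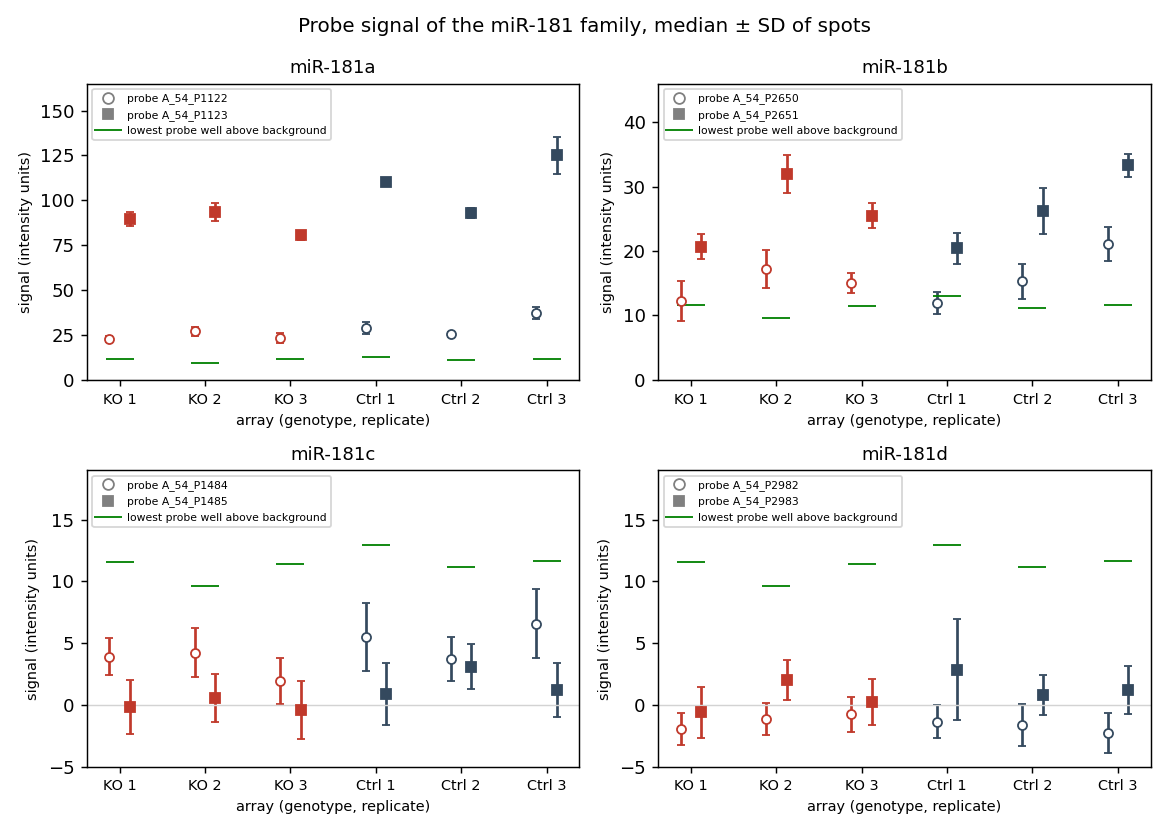
Probe signal of each miR-181 family member in intensity units (vertical axes, which differ between panels) on the 3 knockout and 3 control arrays (horizontal axes), with 2 probes per miRNA. Points are medians and bars the SD over a probe's spots. Green dashes mark the lowest signal of a probe well above background on that array. miR-181a lies above them throughout, the dimmer miR-181b probe lies near them, and miR-181c and miR-181d lie below.

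mmu-miR-181c had 1 of 120 spots well above background. Its gene-level totals were 2.13, 2.76 and 1.15 intensity units in knockout samples and 4.38, 3.90 and 5.24 in control samples, with a scanner error of 1.91 to 2.46 on each total. The groups did not overlap, and the exact permutation test gave its smallest possible p of 0.1. Among the 428 miRNAs that the scanner's gene-level call detected on no array, 10.7% likewise had all knockout totals below all control totals, and 2.34% had them above. The probe signals of miR-181c were at most 6.56 intensity units. They lay below the lowest detected probe signal of every array (9.67 or more), so no fold is given. In the authors' series matrix of log2 values, miR-181c stood at 1.26, 1.68 and 0.34 in knockout samples and at 1.95, 2.23 and 1.94 in control samples. These groups did not overlap either, again at the smallest exact permutation p of 0.1. In that matrix 2.1% of the 428 undetected miRNAs had all knockout values below all control values. Of the 428, 277 lay at the lowest value of the column on all arrays, and of the 38 that lay above it on all arrays, 2, one of them miR-181c, had all knockout values lower. mmu-miR-181d had 0 of 120 spots well above background. Its totals were -1.56, 0.76 and -0.10 in knockout samples and 0.33, 0.12 and -0.92 in control samples, an overlapping scatter around 0, and it lay at the lowest value of the column on all 6 arrays in the series matrix. Expression of either miRNA below the array's detection limit was not measurable here.

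The 4 totals summed to 104.2 ± 12.2 intensity units in knockout samples and 125.1 ± 18.3 in control samples (SD, n = 3 each), a ratio of 0.833 with an exact permutation p of 0.2. Among the 138 miRNAs that the gene-level call detected on all arrays, 27.5% had all knockout totals below all control totals, and neither miR-181a nor miR-181b did. Divided by each array's 75th percentile of the gene-level totals of those 138 miRNAs, the family ratio was 1.06 (exact permutation p = 0.8). This divisor is not the percentile of the 200 probes used for probe signals. The family took 0.166%, 0.262% and 0.179% of the summed mouse miRNA signal in knockout samples, against 0.181%, 0.176% and 0.188% in control samples. Knockout replicate 2 was the array that stood apart. It also had the lowest 75th percentile of the 6 arrays. Without it, the ratio of the unscaled family totals was 0.777.

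The signal of miR-181a over that of miR-181b was taken within each array, where scaling cancels. Probes differ in labelling and binding, so this ratio tracks change between arrays and is no ratio of molecules. With the brighter probes it was 4.34, 2.93 and 3.15 in knockout samples and 5.40, 3.55 and 3.75 in control samples. The log2 ratio averaged 1.78 ± 0.30 in knockout samples and 2.06 ± 0.33 in control samples (SD, n = 3 each). The difference was -0.28 (SE 0.26), the genotypes overlapped, and the two-sided exact permutation test over unpaired samples gave p = 0.4. Without control replicate 1, the array with the highest ratio, the difference was -0.09. Without knockout replicate 1 it was -0.45 and without knockout replicate 2 it was -0.17. Gene-level totals gave ratios of 3.58, 2.51 and 2.60 in knockout samples and 4.205, 2.76 and 3.02 in control samples, a log2 difference of -0.20 with an exact permutation p of 0.5.

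The ratio spanned 1.84-fold over the 6 arrays. The ratio of both miR-181a probes spanned 1.16-fold over the same arrays and that of both miR-181b probes 1.30-fold. The dimmer miR-181b probe was set to the floor, the lowest value allowed, in control replicate 1. That array gave the lowest ratio of both miR-181b probes (1.42), so the floor widened the 1.30-fold span. Among 79 miRNAs with 2 probes detected on every array, the median span was 1.11-fold, and 0 had a wider span than miR-181a over miR-181b. Against pairs of different miRNAs the span was ordinary. The median over 5995 pairs of the 110 miRNAs detected on all arrays was 1.91-fold, and 45.6% of pairs had a narrower one.

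**Figure D2:**
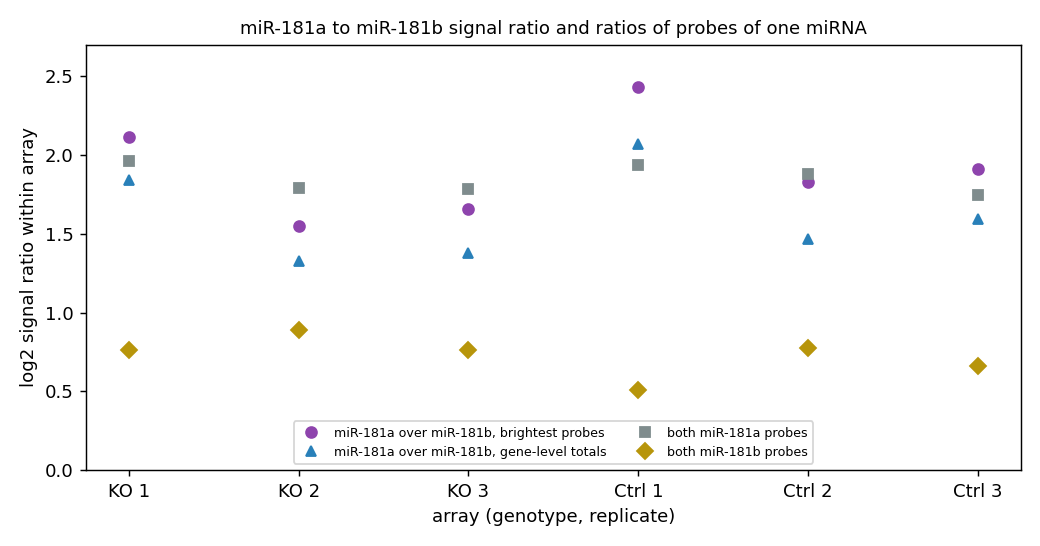
Log2 signal ratios within each array (vertical axis) for the 3 knockout and 3 control arrays (horizontal axis). Circles and triangles are miR-181a over miR-181b from the brighter probes and from gene-level totals, and squares and diamonds are ratios of both probes of 1 miRNA. The diamond (miR-181b) of control replicate 1 rests on a dimmer-probe value set to the floor, the lowest value allowed. The genotypes overlap in miR-181a over miR-181b, with the highest value in control replicate 1.

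A miRNA was tested when 3 or more arrays detected it. Across these 135 miRNAs, limma called 0 at an adjusted p of 0.05 (0% higher and 0% lower in knockout), and 6 had an unadjusted p under 0.05. All 18 alternative settings of the limma fit also called 0. Neither of the 2 tested family members was among those 6. By unadjusted p, miR-181b ranked 26 and miR-181a 75 of the 135. Scaled values did not overlap between genotypes for 10.4% of tested miRNAs, and for neither family member. In simulated data in which 27 of 135 miRNAs changed at once, the same fit recovered 78.7% of those changed 2-fold. This is not the chance of calling a single changed miRNA, which was not simulated, and the SE of miR-181b was 0.27 beside a median of 0.19 over all tested miRNAs.

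**Figure D3:**
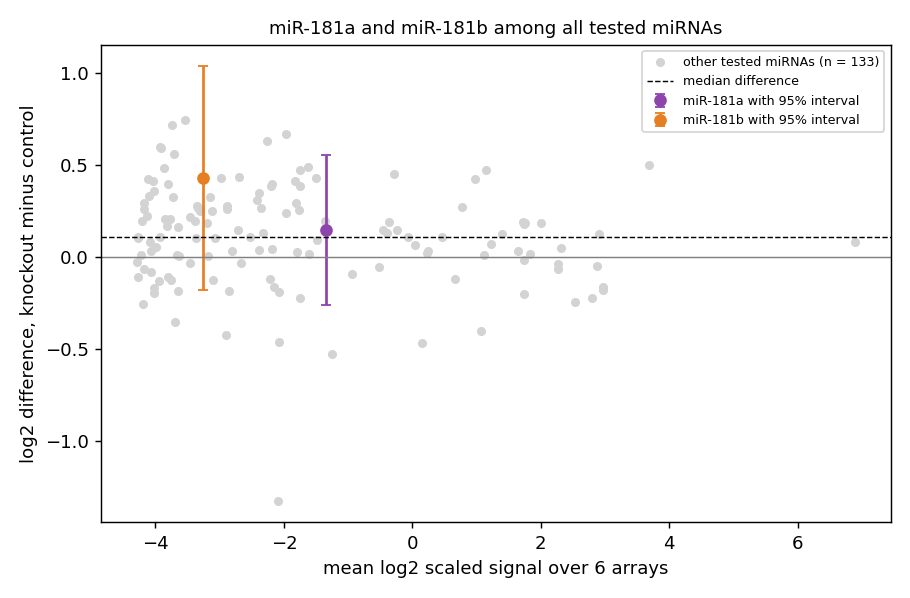
Knockout minus control log2 difference of each of the 135 tested miRNAs, with miR-181a at 0.15 and miR-181b at 0.43 marked. Both lie inside the spread of the other tested miRNAs.

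Other miRNAs of the macrophage setting gave 0 calls as well, in lists that were chosen with earlier results of these data known. Of 14 haematopoietic lineage miRNAs, 13 were tested, 6 with a positive and 7 with a negative difference, and their median was -0.04 beside 0.11 for all tested miRNAs. Among them the myeloid miR-223 was at -0.22 (SE 0.28) and the haematopoietic miR-142-3p at 0.18 (SE 0.22). Of 10 LPS-responsive miRNAs, 8 were tested, 4 in each direction, with a median of 0.02. miR-155, which LPS induces in macrophages, was at -0.04 (SE 0.20), and miR-146a, which restrains Toll-like receptor signalling, at 0.19 (SE 0.28). Of 10 miRNAs linked to Notch, 6 were tested, 3 in each direction, with a median of 0.04. miR-34a, which targets Notch receptors and ligands, was at 0.43 (SE 0.19, limma's adjusted p = 0.637), close to miR-181b in size. miR-30a was at 0.34 (SE 0.26) and miR-125a-5p at -0.53 (SE 0.30), both with limma's adjusted p = 0.637.

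Over the 6 arrays the scaled log2 levels of miR-181a and miR-181b had a Pearson correlation of 0.71, given as a description since all arrays share 1 slide and a common scaling. miR-181b ranked 29 of 134 miRNAs by likeness to miR-181a, whose median correlation with the others was 0.29. The miRNAs most like miR-181a were miR-467f (r = 0.965), miR-466i (r = 0.960) and miR-467a* (r = 0.943), which were held at the floor, the lowest value allowed, on 3, 3 and 5 of the 6 arrays. Those most like miR-181b were miR-185 (r = 0.948), miR-669f (r = 0.920) and miR-378 (r = 0.882), with no array at the floor. All of these miRNAs were highest in knockout replicate 2, as were miR-181a and miR-181b, so that single array weighs heavily in these correlations. miR-467a* was above the floor on that array only.

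**Figure D4:**
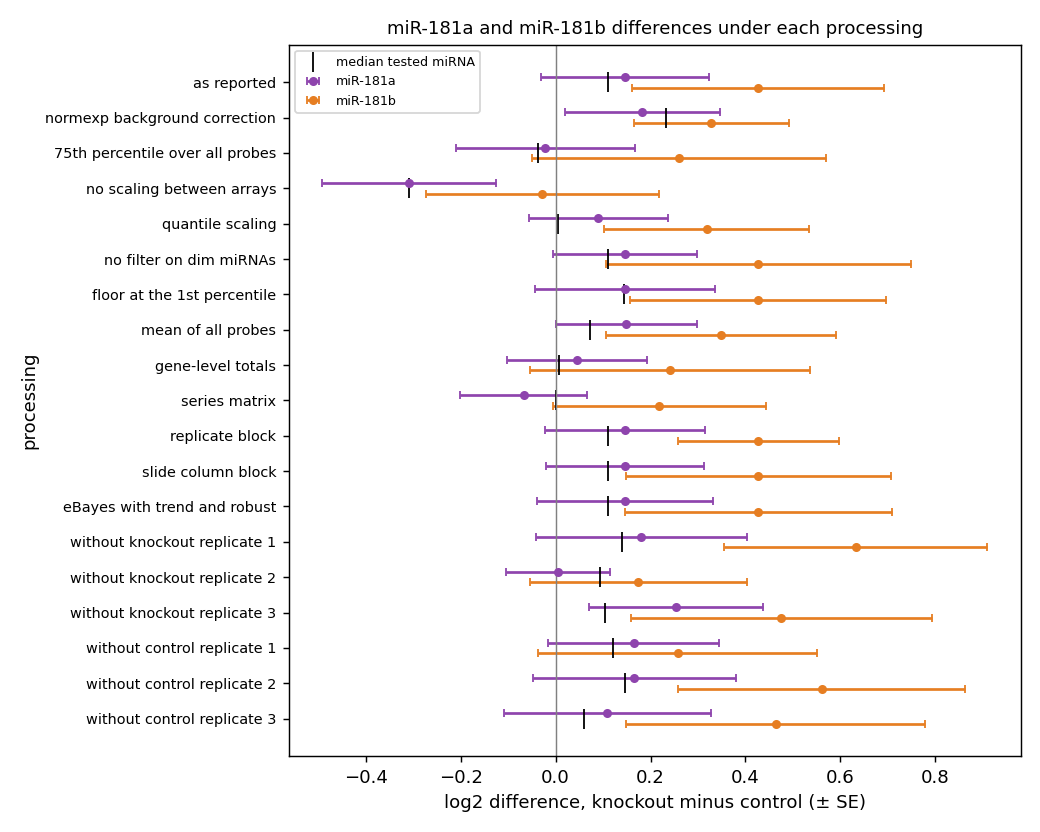
Knockout minus control log2 difference of miR-181a and miR-181b under each processing setting, beside the median of all tested miRNAs under that setting. miR-181a runs from -0.31 without scaling to 0.25 without knockout replicate 3, never more than 0.15 from that median, and miR-181b lies above it in every setting drawn.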

How the data were processed

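Total RNA was labelled with Cy3 and hybridised to 6 one-colour Agilent mouse miRNA arrays of design 021828. The deposited spot intensities had been background-subtracted, per the file headers, which name Feature Extraction 10.5.1.1. Version 9.1 is the one in the submitters' processing notes. A series matrix of log2 values was also deposited, and how the authors made it is not given in the sources. Its columns correlated at 0.999 or more with log2 gene-level totals and shared a maximum of 14.74, with medians from 0 to 0.029.

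Probe intensity was the median over unflagged spots, scaled to the 75th percentile of the 200 probes that every array detected. Values under the 5th percentile of detected signals were set to it (log2 of -4.32) before taking log2. Each miRNA took its probe with the highest mean. The 135 miRNAs detected on at least 3 of 6 arrays were fitted with limma 3.58.1 in R 4.3.3 without covariates, with Benjamini-Hochberg adjustment over all 135 and a threshold of 0.05. For single values the exact permutation test was used, two-sided. The fit was tested on simulated data.

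Groups came from the titles. All arrays lay on 1 slide, with replicate 3 in column 2 and the others in column 1. Slide row and genotype cannot be told apart. The number of arrays limits the precision. 0 columns belonged to no sample. The planned normexp alternative used median spot signals with an offset of 50. miRNA sequences are from RefSeq on GRCm38.p6, where 6 array entries matched, and probe sequences were not used here. The members and lists were chosen with earlier results of these data known. Named miRNAs were the members, their 3 most like miRNAs by correlation and the lists' set examples.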

Additional observations from a re-analysis of the deposited data

How the results depend on the processing

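The genotype difference of miR-181a changed sign in 3 of 18 alternatives: -0.022 with the 75th percentile over all probes, -0.31 without scaling and -0.067 in the authors' series matrix. That of miR-181b changed sign in 1 of 18, at -0.028 without scaling. The family total's ratio was 1.06 when divided by the 75th percentile of gene-level totals. Leaving out 1 array at a time gave 0.005 to 0.25 for miR-181a, 0.17 to 0.63 for miR-181b, -0.45 to -0.09 for the log2 ratio of miR-181a to miR-181b, and 0.777 to 0.907 for the family total. No alternative brought either member past the threshold by limma, with adjusted p from 0.316 to 0.999 for miR-181a and from 0.215 to 0.976 for miR-181b. The number of miRNAs called stayed at 0 in all 18, and the lowest adjusted p was 0.093, with normexp. The ratio's difference was negative in all 16 alternatives, including 3 other probe pairs chosen after seeing the data (-0.12, -0.28 and -0.12). All of these re-used the same arrays. The lower floor and the replicate and slide column blocks left the ratio's difference at the -0.28 of the main setting, so they add nothing on its sign. Within slide columns 1 and 2 the differences were 0.22 and 0.01 for miR-181a and 0.51 and 0.26 for miR-181b. The gene-level call also detected 2 members per array. Without the filter on dim miRNAs, miR-181c and miR-181d lay at the floor on all 6 arrays, with a difference of 0. The filter kept them out of other limma fits. Their totals and series matrix values, given above, placed all knockout below all control samples for miR-181c only.

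With the replicate number as a block, limma gave 0.15 for miR-181a (adjusted p = 0.706), 0.43 for miR-181b (SE 0.17, adjusted p = 0.485), and 0 calls. The ratio's difference, taken outside limma, stayed at -0.28. Its SE was 0.019 over only 3 same-numbered differences, against 0.26 over unpaired samples. The knockout ratio was lower in 3 of 3 same-numbered pairs (-0.31, -0.28 and -0.25). The same held for all 5 ratio versions, floored ones included. An exact sign permutation test over 3 pairs, added after seeing the data, gave p = 0.25, the smallest possible. Correlations of same-numbered samples' deviations were 0.17, -0.07 and 0.37 over all tested miRNAs, and 4 of 6 samples correlated best with their own number. This check does not decide whether the samples were paired. The main fit had no block because the labels do not state a shared animal or day for a number. Same-numbered arrays also lay in neighbouring rows of the same slide column, and the part of this position in the ratio was not tested.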

Other observations

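Of the 4 family entries that were not detected, 3 had all knockout totals below all control totals: miR-181c and both passenger strands. miR-181a-1* read 1.33, 1.58 and 2.34 intensity units in knockout samples and 3.11, 3.36 and 3.70 in control samples. miR-181a-2* read 0.17, -0.17 and -0.19 in knockout samples and 1.04, 0.61 and 0.43 in control samples. Each of these exact permutation tests gave the smallest possible p of 0.1. The scanner error was 1.90 to 2.44 on each miR-181a-1* total and 1.34 to 1.72 on each miR-181a-2* total. The median total of the 428 undetected miRNAs was -1.31, -1.35 and -0.915 on knockout arrays and -0.785, -1.24 and -0.345 on control arrays. Knockout totals lay below all control totals for 10.7% of those 428 miRNAs and above them for 2.34%. The part of this shift between arrays in the family's readings was not tested.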
